A study of Mus musculus with 6 samples.

Results

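The Zic family genes described here are *Zic1*, *Zic2*, *Zic4* and *Zic5*, 4 genes taken by symbol from the 54532 of the deposited count table. Each of the 4 had enough counts to be tested. Poly-A RNA of whole cerebella was sequenced at postnatal day 1 from 3 control libraries and 3 mutant libraries (cKO), 1 library per sample. Controls were *Tox3* f/f littermates, and mutants carried *Nestin-Cre* on the same *Tox3* f/f background, so both groups carry the floxed allele and differ in *Cre* as well as in the deletion. The *Nestin* transgene drives *Cre* in neural progenitors and their progeny, and since no control carried it, an effect of the transgene and one of the deletion cannot be told apart. The sources used here do not say whether each library came from 1 animal, so p-values measure the spread between these libraries.

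Zic proteins are zinc finger transcription factors related to the Gli and Glis proteins, which act in the Sonic hedgehog pathway and elsewhere. In the cerebellum, *Zic1* and *Zic2* are expressed in granule neuron progenitors (GNPs) and in the granule neurons they produce. Loss of *Zic1* together with *Zic4* is associated with cerebellar malformation, and *ZIC2* mutations with holoprosencephaly.

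These genes are arranged as 2 divergent pairs. On GRCm38 (mm10), *Zic1* (ENSMUSG00000032368) lay on the minus strand of chromosome 9 from 91358058 to 91365810, and *Zic4* (ENSMUSG00000036972) on the plus strand from 91362413 to 91389348. Their annotated starts were 3397 bp apart, their gene bodies overlapped, and their exons shared 60 bases, which is 1.05% of the exonic bases of *Zic1* and 0.581% of those of *Zic4*. *Zic5* (ENSMUSG00000041703) lay on the minus strand of chromosome 14 from 122456795 to 122465677, and *Zic2* (ENSMUSG00000061524) on the plus strand from 122475435 to 122479852. The starts of this pair were 9758 bp apart and their exons did not overlap each other. Whether the counting used strand is not given in the sources used here, so reads from the 60 shared bases of *Zic1* and *Zic4* could have come from either gene.

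The upstream sequences are shown for the most abundant member and for the member with the largest fold change, one from each pair, since Atoh1 and the other basic helix-loop-helix factors of granule cells bind E-boxes. They come from RefSeq on GRCm38.p6, are written 5′ to 3′ on the minus strand of each gene, stop short of any annotated exon, and carry an E-box (CANNTG, searched on both strands) in capitals. The *Zic1* stretch is chr9:91365811-91366018 and the *Zic5* stretch is chr14:122465678-122465908.
*Zic1*: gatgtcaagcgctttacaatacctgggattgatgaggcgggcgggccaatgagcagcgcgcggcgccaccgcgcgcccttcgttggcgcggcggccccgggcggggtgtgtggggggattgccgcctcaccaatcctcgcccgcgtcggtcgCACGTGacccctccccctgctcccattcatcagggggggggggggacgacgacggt
*Zic5*: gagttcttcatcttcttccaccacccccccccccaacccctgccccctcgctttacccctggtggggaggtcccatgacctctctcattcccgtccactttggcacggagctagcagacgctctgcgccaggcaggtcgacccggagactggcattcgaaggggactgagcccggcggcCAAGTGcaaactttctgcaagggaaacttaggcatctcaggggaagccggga
Each stretch held 1 E-box, and 66.2% of 32851 RefSeq promoters held at least 1 in the 250 bases before the start. The stretch of *Zic1* was 71.2% G and C and that of *Zic5* was 62.3%. The E-box forms CAGCTG, present in 13.0% of all promoters, and CAGATG, present in 14.4%, were absent from these windows, as was the Gli motif GACCACCCA, present in 0.225%. CAGCTG and CAGATG are themselves forms of CANNTG, and the marked CACGTG and CAAGTG are other forms. Whether Atoh1 binds either marked E-box was not tested. The table of promoters also held *Zic4*, whose window lies in annotated exons and is not printed, and did not hold *Zic2*.

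The libraries held between 15391854 and 17178478 counts. The *Tox3* total of a library spans the whole gene and does not resolve the deleted part, and it was 987, 968 and 1003 counts in controls against 959, 970 and 951 in mutants, so it does not check the labels. *Atoh1*, the factor that specifies GNPs, totalled 501, 491 and 481 counts in controls and 10, 4 and 4 in mutants. Of the other granule lineage markers, *Barhl1* averaged 307 CPM in controls and 51.1 in mutants and *Pax6* averaged 367 and 185 (CPM, counts per library total after TMM scaling), so the labelled tissue was present in both groups.

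*Zic1* was among the most abundant mRNAs of the P1 cerebellum. Per length, its level over the 6 libraries ranked 82 among all genes and 2 among 1469 genes that the table assigns to a transcription factor family, where *Ybx1* ranked first. *Zic2* ranked 3 among those factors, *Zic5* ranked 40 and *Zic4* 121. The order of these members was therefore *Zic1*, *Zic2*, *Zic5* and *Zic4*, in each of the 6 libraries. No neighbours in this order overlapped within a group. The length used for *Zic4*, 10335 bases, joins the exons of 12 annotated transcripts, so its level per length is understated where shorter transcripts were expressed.

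**Figure D1:**
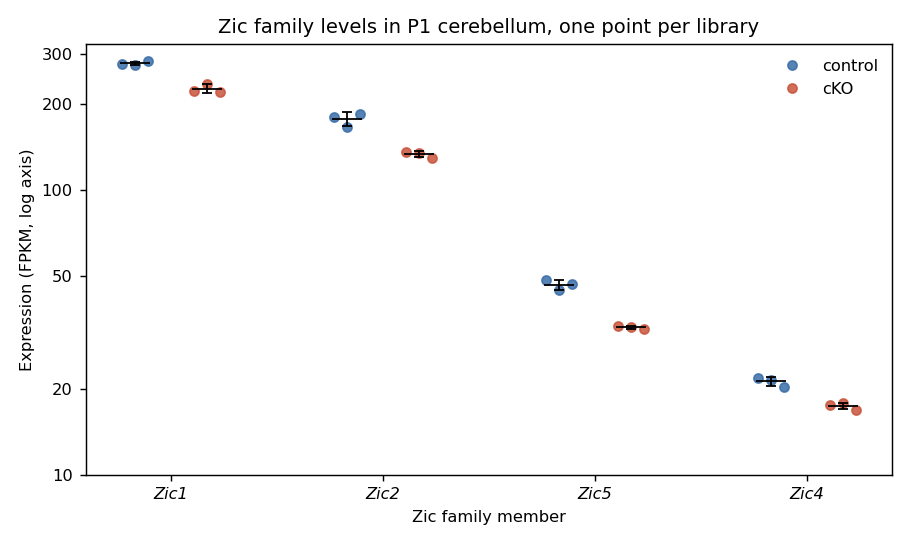
Level of *Zic1*, *Zic2*, *Zic5* and *Zic4* in FPKM (fragments scaled by gene length and library total, log axis) in the 3 control (blue) and 3 mutant (red) libraries, with each group's mean and SD in black. For each of these genes, the 3 mutant libraries lie below the 3 control libraries.

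The question put to these members was whether their mRNA differed between control and mutant cerebella. The 4 genes were each lower in mutants at an adjusted p under 0.01 (edgeR quasi-likelihood test, Benjamini-Hochberg over 17505 genes), against 7.24% of all tested genes that were lower by the same rule. This rule, without a fold threshold, was added after seeing the data. Only *Zic5* also passed the study's fold threshold, a log2 fold change beyond 0.5, and 3.63% of all tested genes were lower by both thresholds. The median log2 fold change of the 4 genes was -0.36, and that of all tested genes was -0.01. In whole tissue, fewer cells of a type and less RNA per cell cannot be told apart.

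*Zic1*, a factor of granule cells from the progenitor stage on, had 24422, 24155 and 25211 counts in the control libraries and 21975, 20809 and 20212 in the mutant libraries. Its FPKM were 277, 274 and 282 in controls and 222, 236 and 221 in mutants, and every mutant library lay below every control library. The mean fell from 1594 ± 23.4 to 1294 ± 53.9 CPM (SD, n = 3 per group), a log2 fold change of -0.30 (SE 0.05; edgeR quasi-likelihood adjusted p = 0.00116). This is 18.8% lower, with a 95% interval from 12.9% to 24.3%. The adjusted p rose to 0.0104 without mutant library 1 and to 0.0117 without mutant library 3.

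*Zic4*, the divergent partner of *Zic1*, had 3503, 3451 and 3300 counts in controls and 3154, 2856 and 2814 in mutants. Its FPKM were 21.9, 21.6 and 20.3 in controls and 17.6, 17.8 and 16.9 in mutants, again with no overlap between the groups. It fell from 222 ± 8.51 to 181 ± 5.48 CPM (SD, n = 3), with a log2 fold change of -0.29 (SE 0.05; edgeR adjusted p = 0.00185), or 18.3% lower. As for *Zic1*, its adjusted p exceeded 0.01 without mutant library 1 (0.0106) or mutant library 3 (0.0131).

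*Zic2*, the member known for its part in forebrain patterning and also expressed in GNPs, had 8053, 7410 and 8360 counts in controls and 6799, 6033 and 6010 in mutants. Its FPKM were 180, 166 and 185 in controls and 136, 135.0 and 130 in mutants, and the lowest control lay above the highest mutant. It fell from 514 ± 28.5 to 387 ± 10.6 CPM (SD, n = 3), with a log2 fold change of -0.41 (SE 0.05; edgeR adjusted p = 0.000501). The fall was 24.9%, with a 95% interval from 18.5% to 30.8%.

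*Zic5*, the divergent partner of *Zic2*, had 3658, 3374 and 3588 counts in controls and 2823, 2508 and 2549 in mutants. Its FPKM were 48.2, 44.6 and 46.7 in controls and 33.3, 33.1 and 32.4 in mutants, which formed a tight group below all controls. It fell from 229 ± 9.28 to 162 ± 2.55 CPM (SD, n = 3), with a log2 fold change of -0.50 (SE 0.05; edgeR adjusted p = 7.61e-05), or 29.5% lower with a 95% interval from 24.3% to 34.4%. *Zic5* ranked 193 by p among all tested genes, *Zic2* 559, *Zic1* 911 and *Zic4* 1167. The fold change of *Zic5* sat at the threshold of 0.5, and the member was not called without control library 1 (-0.48) or without mutant library 3 (-0.49), although its adjusted p was then 0.000492 and 0.000891. With DESeq2, its log2 fold change of -0.499 also fell short of the threshold.

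For each of the 4 genes, every control library lay above every mutant library, against 20.1% of all tested genes.

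**Figure D2:**
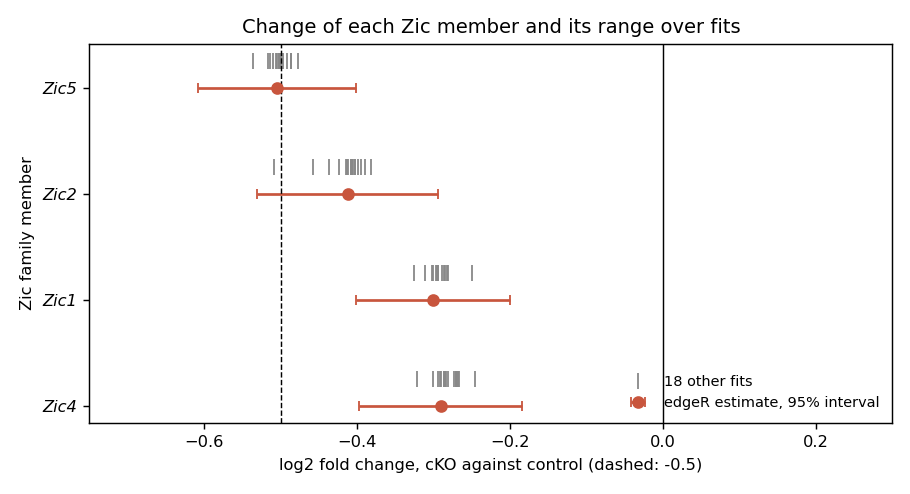
log2 fold change of the 4 genes, mutant against control, with its 95% interval (red) and the estimates of 18 other fits as grey ticks. The dashed line is the fold threshold of -0.5, which *Zic5* sits on, and none of the 4 intervals holds 0.

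In FPKM, which the authors scaled by length, the same 4 genes were lower at an adjusted p under 0.01 (limma on log2(FPKM + 1) over 17301 genes), and 4.40% of all genes were lower by that rule. On this scale, the log2 fold changes were -0.49 for *Zic5*, -0.40 for *Zic2*, -0.29 for *Zic1* and -0.27 for *Zic4*. Summed over the 4 genes, FPKM were 527, 506 and 534 in controls and 409, 421 and 399.6 in mutants. The mean of the sum went from 522 ± 14.4 to 410.0 ± 10.9 (SD, n = 3), a log2 difference of -0.35. *Zic1* alone held 53.1% ± 0.863 of that sum in controls and 55.1% ± 0.779 in mutants, and *Zic5* held 8.90% ± 0.219 and 8.03% ± 0.158 (SD, n = 3). Of all counts, the 4 genes took 0.255%, 0.247% and 0.259% in controls and 0.202%, 0.209% and 0.198% in mutants.

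Ratios between members showed how far they differed by the same amount. The ratio of counts of 2 members within a library needs no scaling between libraries, and it was compared for the 6 pairs of the 4 genes with a two-sided exact permutation test over the 20 arrangements of the libraries, which cannot give a p under 0.1. The 3 ratios to *Zic5* did not overlap between the groups, each with an exact permutation p of 0.1 and an adjusted p of 0.2 over the 6 pairs, so none passed a threshold. On the log2 scale, *Zic4*/*Zic5* was 0.21 higher in mutants, *Zic1*/*Zic5* 0.20 and *Zic2*/*Zic5* 0.09. Within the first divergent pair, *Zic1*/*Zic4* differed by -0.01 with overlapping groups (exact permutation p = 0.8). *Zic1*/*Zic2* (0.11) and *Zic2*/*Zic4* (-0.12) overlapped, with an exact permutation p of 0.2 for each. Without control library 3, *Zic2*/*Zic4* was -0.06 and *Zic1*/*Zic4* was 0.03.

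**Figure D3:**
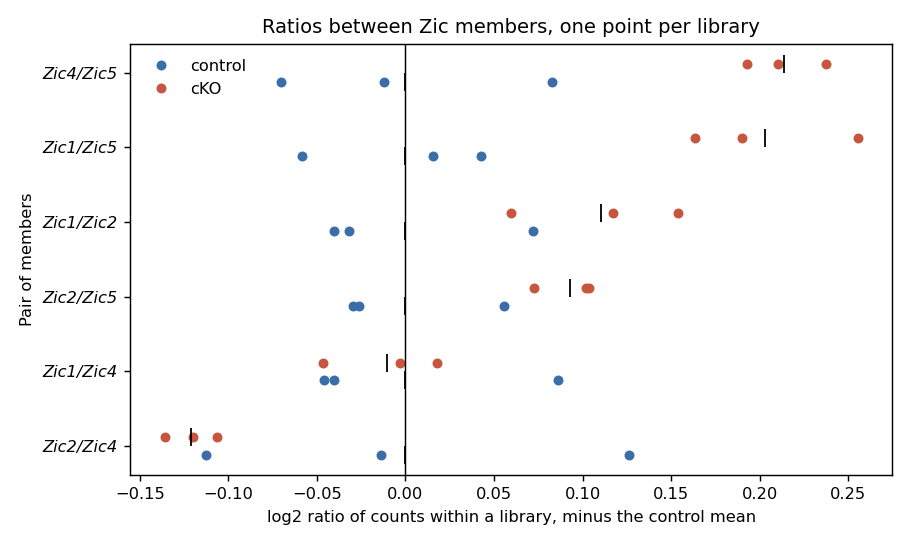
log2 ratio of counts of each pair of the 4 genes in each library, minus the control mean of that pair, for 3 control (blue) and 3 mutant (red) libraries, with group means as black bars. The 3 ratios to *Zic5* are higher in every mutant library than in any control library, and *Zic1*/*Zic4* overlaps.

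The profile of each member over the 6 libraries was compared with those of 11072 genes averaging 10 CPM or more, by the root mean square difference of centred log2 CPM, as a description. Among the 4 genes, *Zic4* was closest to *Zic1* (0.0474), at rank 102 of all compared genes, and at rank 147 in the other direction. *Zic2* was closest to *Zic5* (0.0546, rank 51 in both directions). The 3 genes most like *Zic1* were *Rps25* (0.0212), *Rbm33* and *Msantd3*, and those most like *Zic4* were *Rcn1* (0.0109), *Tcf20* and *Polr3c*. Those most like *Zic5* were *Cbln1* (0.0198), *Incenp* and *Pcsk5*, and *Cbln1*, which encodes a synapse organizer secreted by granule cells, had a log2 fold change of -0.52. Those most like *Zic2* were *Klf13* (0.0253), *Ccdc85c* and *H1fx*.

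Beside the *Zic2* and *Zic5* pair, 24 other genes lay within 500 kb, and 12 of these were tested. Of the 12, 2 were called lower, against 3.63% of all tested genes. The noncoding gene *2610035F20Rik* starts 236 bp from the start of *Zic2* on the opposite strand (chromosome 14, 122470284 to 122475199), with no exonic base shared with another gene. It had 738, 685 and 710 counts in controls and 482, 463 and 467 in mutants, without overlap. It fell from 46.1 to 29.0 CPM with a log2 fold change of -0.67 (SE 0.07; edgeR adjusted p = 0.000217), a point estimate beyond those of both *Zic2* and *Zic5*. The antisense gene *AC154683.1* starts 68692 bp from the start of *Zic2* and had 892, 1102 and 995 counts in controls and 741, 679 and 714 in mutants. Its log2 fold change was -0.56 (SE 0.08; edgeR adjusted p = 0.00102), and -0.48 without control library 2, which was under the fold threshold. *Clybl*, which encodes a mitochondrial citramalyl-CoA lyase and whose body overlaps that of *AC154683.1* on the other strand, had -0.50 (SE 0.08; edgeR adjusted p = 0.00225), just short of the fold threshold. *Tm9sf2* had 0.17 and *Pcca* had -0.20, with edgeR adjusted p of 0.034 and 0.12.

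Around *Zic1* and *Zic4*, 16 other genes lay within 500 kb, 7 were tested and 0 were called by edgeR, 0 by DESeq2 and 0 by limma, while 4 had an unadjusted edgeR p under 0.05. 6 of the 7 had a negative log2 fold change, against 8904 of all 17505 tested genes. By p, the gene ranked 6500 of all tested genes had an unadjusted edgeR p of 0.0501. Beside *Zic2* and *Zic5*, 7 of the 12 tested genes were negative, and 5 had an unadjusted edgeR p under 0.05. *Gm37477*, which shares 468 exonic bases with *Zic4* on the opposite strand (4.53% of the exonic bases of *Zic4*), had 139, 125 and 149 counts in controls and 104, 99 and 111 in mutants, a log2 fold change of -0.47 (edgeR adjusted p = 0.0292). If the counting did not use strand, reads from these bases could have come from either gene. *Gm5620* had -0.92 (adjusted p = 0.0317) and *Gm37987* had -1.48 (adjusted p = 0.0635), both from under 100 counts per library.

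**Figure D4:**
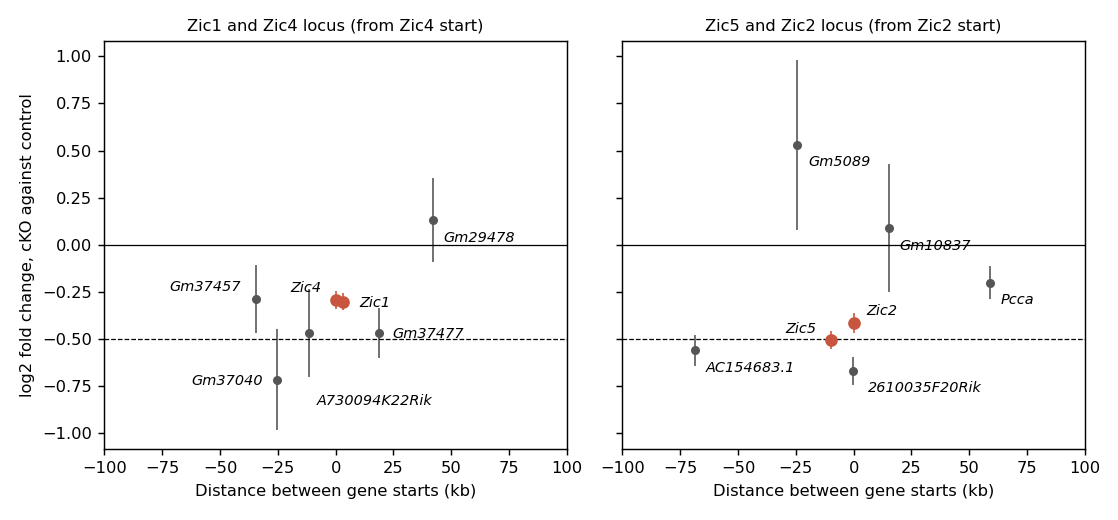
log2 fold change, mutant against control, of the tested genes whose starts lie within 100 kb of the *Zic4* start (left) or the *Zic2* start (right), with SE bars. Zic members are red and other genes grey, and the horizontal axis is the distance between gene starts in kb (negative is upstream). The dashed line is the fold threshold of -0.5, which *2610035F20Rik*, *AC154683.1* and *Zic5* pass on the right. On the left *Gm37040* passes it (-0.72), but was not called (edgeR adjusted p = 0.0788).

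The Gli and Glis genes, the nearest relatives of the Zic genes by their zinc fingers, had more varied fold changes. Of 6 tested, 2 were called lower and 1 higher, and 3.03% of all tested genes were called higher. Their median log2 fold change was -0.22. *Gli2*, an activator of the Sonic hedgehog response, fell from 94.4 to 36.2 CPM (log2 fold change -1.38; edgeR adjusted p = 1.12e-05). *Gli1*, itself a hedgehog target, fell from 80.0 to 55.5 CPM (-0.53; adjusted p = 0.00156). *Glis3* rose from 13.6 to 25.6 CPM (0.91; edgeR adjusted p = 0.000596). *Gli3* had -0.14, *Glis2* had -0.30 and *Glis1* had 0.03, none of them called.

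Other gene lists give the setting of the Zic values, and they were drawn up with earlier results of these data known. Of 18 granule lineage regulators tested, 10 were called lower and 1 higher with a median of -0.58, and their summed level was 3843 to 3881 CPM in controls and 2447 to 2613 in mutants. *Atoh1* (-6.40), *Barhl1* (-2.59), *Insm1* (-1.80) and *Neurod1* (-1.16) had the smallest p of this list. Granule neuron maturation genes had 5 of 15 called lower and none higher, with a median of -0.41. Sonic hedgehog genes had 8 of 12 called lower (median -0.57), and proliferation genes had 9 of 10 called lower (median -0.74). Of the 235 tested cerebellum-enriched transcriptional regulators named in the study's organ atlas, 18 were called lower and 9 higher, with a median of -0.01. This atlas list holds the 4 Zic genes themselves, and *Zic5* is among the 18.

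Lists of other cell types had positive medians. Purkinje cell genes had 5 of 10 called higher (median 0.49), and their summed level was 1725 to 1845 CPM in controls and 2301 to 2774 in mutants. GABAergic interneuron lineage genes had 4 of 13 called higher and 1 lower (median 0.43), with sums of 755 to 774 and 1057 to 1110 CPM. Astrocyte and Bergmann glia genes had 3 of 10 called higher (median 0.34), with sums of 3925 to 3972 and 4986 to 5390 CPM. Nuclear and unipolar brush cell genes had 2 of 10 called higher and 1 lower (median 0.27), while their sums of 297 to 304 and 254 to 268 CPM were lower in mutants.

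Meninges, where Zic genes are also expressed, were represented by 13 tested genes, of which 4 were called higher and none lower (median 0.58). Their summed level was 980 to 1019 CPM in controls and 1229 to 1687 in mutants, opposite in direction to the Zic genes. Of 8 choroid plexus genes, 1 was called higher (*Foxj1*), and the sum was 108 to 185 CPM in controls and 81.3 to 826 in mutants. Without the library of the highest sum, mutant library 3, the log2 fold changes were -0.28 for *Zic1*, -0.39 for *Zic2*, -0.27 for *Zic4* and -0.49 for *Zic5*. Of 12 midbrain and hindbrain genes, 3 had enough counts to be tested, and *Hoxb2* and *Hoxb3* had at most 3 counts in each library. The 1 called lower was *Barhl2*, which is also on the granule lineage list. Of 7 tested genes of the cerebellar territory, *En1* (32.7 CPM in controls and 11.3 in mutants) and *Fgf8* (2.46 CPM in controls) were called lower. None was called higher, and the median log2 fold change of this territory list was 0.25, with 3 of the 7 negative. *Pax2* had 0.46 (edgeR adjusted p = 0.00017). The part of these lists in the Zic values was not tested.

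**Figure D5:**
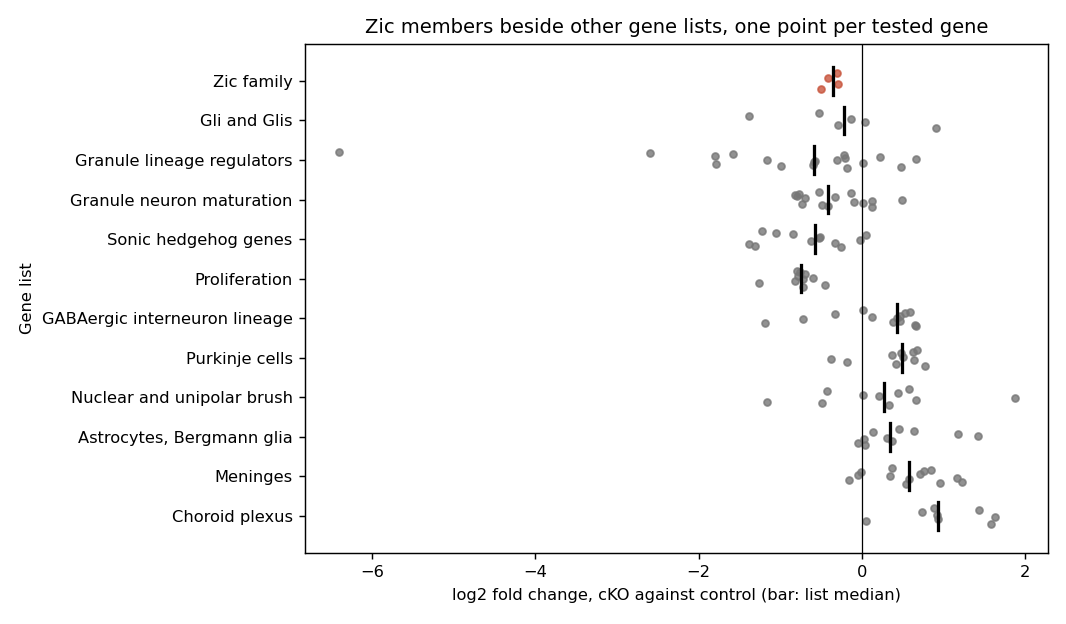
log2 fold change, mutant against control, of each tested gene of 12 lists, with each list's median as a black bar. The 4 Zic genes (red) lie between -0.50 and -0.29, and the granule lineage list reaches -6.40.

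3 libraries had more than 3 counts of each of the Y-chromosome genes *Ddx3y*, *Eif2s3y*, *Kdm5d* and *Uty*, 1 of the controls and 2 of the mutants. Among these 3 the log2 differences were -0.33 for *Zic1*, -0.45 for *Zic2*, -0.35 for *Zic4* and -0.57 for *Zic5*. Among the other 3 they were -0.23, -0.37, -0.23 and -0.46 in the same order. *Zic1*, *Zic2*, *Zic4* and *Zic5* were thus lower in mutants in both sets. With 1 library in 1 group of each set, these values carry no test. The *Zic2* transcript was 59.9% G and C, which placed it at the 96.6th percentile of genes, while *Zic1*, *Zic4* and *Zic5* lay between 45.7% and 49.8%. With the trend of fold change on GC content removed, *Zic2* had a log2 fold change of -0.51 (edgeR adjusted p = 4.95e-05), which passed both thresholds, and *Zic1* had -0.25.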

How the data were processed

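The authors filtered the reads, aligned them to mm10 with HISAT2 2.0.5 and counted them per gene with featureCounts 1.5.0-p3 (per the submitters' processing notes). They deposited raw counts per gene, together with FPKM that the authors computed from the counts and the gene length. Which annotation was used, whether strand was used and how multi-mapping reads were treated are not given in the sources used here. Gene lengths in the table equalled the exon unions of GENCODE M21 for the 4 genes described.

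The 3 control and 3 cKO libraries were compared on counts with edgeR 4.0.16 under R 4.3.3, by its quasi-likelihood test after filterByExpr and TMM scaling. A gene was called when its Benjamini-Hochberg adjusted p was below 0.01 and its absolute log2 fold change above 0.5, as in the study. FPKM of at least 0.5 in 3 libraries were tested with limma 3.58.1 on log2(FPKM + 1), and fold changes on that scale understate those of low genes. DESeq2 1.42.0 was an alternative, and the fits were tested on simulated data. No 2 libraries of a group agreed within sampling noise. Total counts were 15391854 to 17178478 per library.

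The members and all lists were chosen with earlier results of these data known. Some results are not reported here. Named genes were the members described, *Tox3*, *Atoh1*, sex genes, all Gli and Glis genes, at most 4 genes with the smallest p of each other list, the tested genes within 500 kb of a member, and the 3 genes most like each member. *Ybx1*, *En1*, *Fgf8*, *Hoxb2*, *Hoxb3* and *Barhl2* are named by their place in a rank or list. Sex genes are given only as the libraries with Y-chromosome counts. *Pax6* is a marker of the granule lineage.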

Additional observations from a re-analysis of the deposited data

How the results depend on the processing

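The fold changes of the 4 Zic genes kept their direction under every alternative. The difference of *Zic1*/*Zic4*, -0.01, was 0.03 without control library 3 and 0.01 without mutant library 1, and the median of all tested genes, -0.01, was 0.01 with library size alone and 0.0012 without mutant library 2. The Zic count lower by both thresholds was 1, and it was 0 with DESeq2, with DESeq2 size factors, with library size alone, with at least 10 counts in every library, in each of the 3 limma fits on FPKM and with a test against the fold threshold (glmTreat), since the *Zic5* estimate was then smaller in size than 0.5 or, in the last, was tested against the threshold itself. It was 4 at an adjusted p under 0.05 or 0.01 without a fold threshold, 2 with the GC trend removed, and 0 to 1 with each library left out. The count at the adjusted p alone was 4, and it was 2 with limma without a filter, 0 with glmTreat and 2 to 4 with each library left out. Over the 18 alternative fits, the log2 fold change spanned -0.33 to -0.25 for *Zic1*, -0.51 to -0.38 for *Zic2*, -0.32 to -0.25 for *Zic4* and -0.54 to -0.48 for *Zic5*. The adjusted p was under 0.01 in 18 of these for *Zic2* and *Zic5* and in 15 for *Zic1* and *Zic4*.

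Over all genes, 635 were lower and 530 higher. These were 397 and 285 with limma on log2(FPKM + 1), 286 and 176 without a filter, 2252 and 2136 at an adjusted p under 0.05 alone, 1268 and 1147 at 0.01 alone, 145 and 30 with glmTreat, and 492 to 778 and 349 to 569 with each library left out. With a pseudocount of 0.1, 338 were higher. Neighbours lower were 2, and 1 with limma without a filter, 5 at an adjusted p under 0.05, 0 with glmTreat, 1 with the GC trend removed and 1 to 3 with each library left out. Other lists had 37 genes lower (21 with glmTreat) and 20 higher, and 12 higher with limma without a filter, 37 at an adjusted p under 0.05 and 2 with glmTreat. The cause of these shifts was not tested.

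Same-numbered control and cKO libraries had deviations that correlated at 0.48, 0.54 and -0.34, so the numbers were not taken to pair them. Control 1 was most like cKO 3 (0.55) and least like cKO 2 (-0.69). Control and cKO libraries alike in having or lacking Y-chromosome counts correlated positively, and those that differed in this correlated negatively. With the replicate number as a block, 696 genes were lower and 561 higher, 1 Zic member was called, and *Zic5* had -0.50. The GC trend, the within-set values and the rule without a fold threshold were chosen after seeing the data. With 3 libraries per group, small differences between members could not be resolved.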
